A study of Mus musculus with 6 samples.

Results

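The immediate-early genes described here are Fos, Fosb, Jun, Junb, Egr1, Atf3, Ier2, Ier3, Nr4a1 and Myc. These genes were chosen by name and not by a measured value, but with earlier results of these data known. All 10 were matched by Entrez number among the 17524 genes obtained by summing transcripts, and all 10 passed the filter on low counts. They were measured in 6 mouse heart RNA-seq libraries. For all 6 libraries the labels state that the anterior descending branch of the left coronary artery was ligated, which cuts the blood supply of part of the left ventricle. Libraries 35, 36 and 37 are labelled wild type and are called control, and libraries 34, 41 and 43 are labelled TFEB overexpression and are called TFEB. Values of single libraries are given in the order 35, 36, 37 for control and 34, 41, 43 for TFEB. The design text gives the latter line as R26-LSL-TFEB [+/+]; Acta2-cre: a TFEB cassette at Rosa26 that stays silent until Cre, driven by the Acta2 promoter of smooth muscle and myofibroblasts, removes a stop sequence. Not given in the sources used here are the age and sex of the mice, the time from ligation to sampling, the part of the heart taken and whether each library is 1 animal, and p-values here therefore cover only differences among these libraries, which may be technical.

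Immediate-early genes are transcribed within minutes of a stimulus, without new protein synthesis, from promoters on which kinases of the MAPK and cAMP pathways act through SRF, its partners and CREB. Their transcripts are short-lived, so their level follows the recent history of a tissue. Fos, Fosb, Jun and Junb encode basic leucine zipper proteins that pair as AP-1, Egr1 and Nr4a1 encode a zinc finger factor and an orphan nuclear receptor, and Myc drives growth genes. In the heart they are known to respond to ischaemia, stretch and adrenergic stimulation, and also to the handling of tissue.

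The labels name primary fibroblasts as well as heart. Heart muscle genes prevailed: summed over 10 cardiomyocyte markers the level ran from 64398 to 119695 CPM (a gene's count relative to the scaled total of its library), against 3249 to 6377 CPM over 8 fibroblast markers. Totals per library ran from 12942480 to 14969287 estimated counts. Tfeb stood at 33.8 to 41.4 CPM in control and 39.4 to 45.4 CPM in TFEB, so the groups overlapped, and it differed by 0.25 on the log2 scale (SE 0.12, edgeR adjusted p = 1.00). No pair of libraries within a group was alike within counting error (chi-square over its degrees of freedom 43.5 to 149). In whole tissue, fewer cells of a type and less RNA per cell cannot be told apart.

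Promoter windows, 250 bases before to 50 after a transcription start, were found in the RefSeq table of build GRCm38.p6 for Fos, Fosb, Jun, Junb, Atf3, Ier3 and Nr4a1, and not for Ier2 and Myc among others. The half-site of the cAMP response element, TGACG on either strand, lay in 5 of these 7 windows (Fos, Fosb, Junb, Atf3 and Nr4a1), against 26.7% of 17315 windows of genes in the table. The longer palindrome TGACGTCA, which holds that half-site, lay in none of the 7 and in 2.56% of all windows. Its variant TGACATCA lay in the Jun window and in 2.40% of all. The AP-1 site TGACTCA (4.22% of all windows), the E-box CACGTG that TFEB can bind (8.86%) and the CArG box of SRF (1.41%) lay in none of the 7 on either strand. Nothing is drawn about any factor from a match or its absence in so short a window. The upstream 250 bases are shown for Fos, Junb, Atf3 and Nr4a1, which hold the half-site. Those of Fosb, which also holds it, and of Jun and Ier3, which do not, are not shown. The printed stretches have TGACG or its reverse complement in capitals and run 5′ to 3′ on the gene's strand. Their places are chr12:85473640-85473889 (Fos, plus strand), chr8:84978749-84978998 (Junb, minus strand), chr1:191183334-191183583 (Atf3, minus strand) and chr15:101266596-101266845 (Nr4a1, plus strand, inside the annotated span of the gene).
Fos: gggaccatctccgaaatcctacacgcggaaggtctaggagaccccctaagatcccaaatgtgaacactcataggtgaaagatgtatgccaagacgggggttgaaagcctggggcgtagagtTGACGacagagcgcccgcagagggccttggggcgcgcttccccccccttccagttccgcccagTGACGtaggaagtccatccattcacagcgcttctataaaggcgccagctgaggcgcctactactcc
Junb: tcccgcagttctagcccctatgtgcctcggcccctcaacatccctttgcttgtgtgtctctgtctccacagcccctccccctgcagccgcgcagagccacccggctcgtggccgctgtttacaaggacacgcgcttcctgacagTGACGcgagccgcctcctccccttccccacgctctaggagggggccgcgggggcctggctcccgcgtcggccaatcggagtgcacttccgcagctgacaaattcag
Atf3: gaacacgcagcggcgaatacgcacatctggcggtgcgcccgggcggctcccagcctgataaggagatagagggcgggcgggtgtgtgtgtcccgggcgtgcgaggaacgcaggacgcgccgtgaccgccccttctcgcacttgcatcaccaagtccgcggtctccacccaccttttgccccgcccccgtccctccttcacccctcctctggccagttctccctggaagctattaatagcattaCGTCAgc
Nr4a1: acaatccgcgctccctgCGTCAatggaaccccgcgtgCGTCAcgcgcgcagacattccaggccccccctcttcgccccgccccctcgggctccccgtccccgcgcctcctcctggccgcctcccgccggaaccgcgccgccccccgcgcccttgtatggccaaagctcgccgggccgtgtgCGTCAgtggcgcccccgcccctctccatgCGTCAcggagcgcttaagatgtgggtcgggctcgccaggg
The half-site occurs 2 times in the stretch of Fos, 1 time in those of Junb and Atf3, and 4 times in that of Nr4a1.

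On the TPM scale, which corrects for transcript length so that genes can be compared, Jun was the most abundant member and Fosb the least. The means over the 6 libraries were 48.3 ± 9.95 TPM for Jun, 40.1 ± 8.62 for Ier3, 24.2 ± 9.11 for Junb, 21.6 ± 4.46 for Ier2, 16.6 ± 8.88 for Nr4a1, 16.5 ± 5.04 for Egr1, 8.12 ± 4.70 for Atf3, 4.997 ± 1.79 for Fos, 3.60 ± 1.85 for Myc and 0.538 ± 0.262 for Fosb (SD, n = 6 libraries of both groups). Only Myc and Fosb, of the 9 neighbouring pairs in this order, had ranges over the libraries that did not overlap. Within each library Jun stood above Ier3 and Ier3 above Junb in 6 of 6, while Nr4a1 stood above Egr1 in 3 of 6. Fos, the best-known member, lay near the bottom of the order and reached 0.0777 to 0.212 of the TPM of Jun, its usual partner in AP-1.

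**Figure D1:**
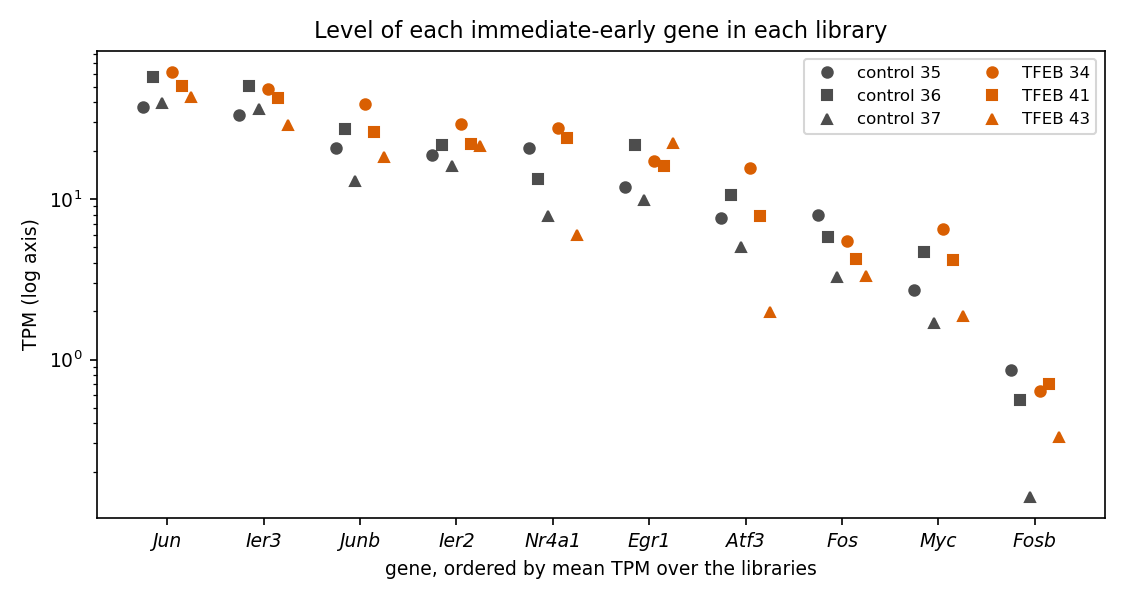
Level of the 10 genes in TPM on a log axis, 1 point per library, with control in grey and TFEB in orange. Jun and Ier3 lie highest and Fosb lowest, and the orange and grey points overlap for every gene.

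No member passed the test between the groups. In edgeR's quasi-likelihood fit over 13565 genes, 0 of 10 members and 0 of all genes (0% of those tested) had an adjusted p under 0.05. At an unadjusted p under 0.05 there were 164 genes, among them 1 member, Ier2; DESeq2 called 1 gene, no member, and limma-voom 0. Of the 10 members, 8 stood higher in TFEB and 2, Fos and Ier3, lower, against 51.0% of all tested genes higher. Their median log2 fold change was 0.28, against 0.00 for all genes tested. That median was 0.087 without TFEB 34 and 0.17 without control 37. No sign of the group as a whole is read from it.

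**Figure D2:**
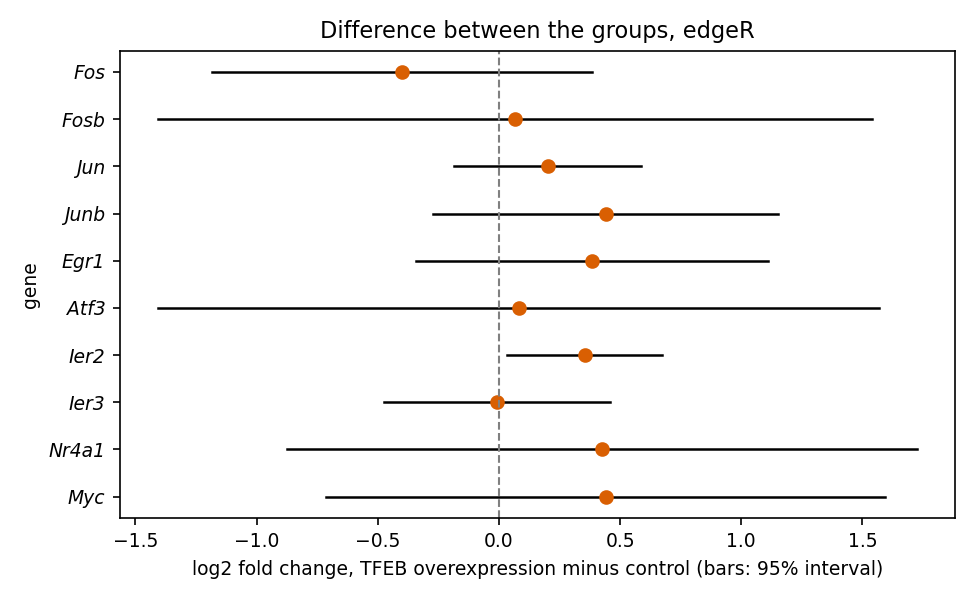
Log2 fold change of each gene, TFEB minus control, with its 95% interval from edgeR. The interval of Ier2, from 0.035 to 0.67, lies above 0 before adjustment for the number of genes, and the other 9 span 0.

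Ier2, a small nuclear protein induced by growth factors, was the one member whose groups did not overlap in CPM. The gene (Entrez 15936, chromosome 8, 84661331 to 84662852) measured 14.4, 15.7 and 13.1 CPM in control and 20.6, 16.8 and 17.7 CPM in TFEB. Each TFEB library lay above each control, the nearest pair being TFEB 41 and control 36 with 229 and 223 counts. TFEB over control gave a ratio of 1.28 (95% interval 1.02 to 1.595; log2 fold change 0.35, SE 0.13; edgeR adjusted p = 1.00). Among all genes tested, 2.24% lay higher in every TFEB library and 2.51% lower in every one, and the 1 of 10 members here is a single gene. In the authors' TPM the groups of Ier2 did overlap, with 21.4 TPM in TFEB 43 and 21.7 TPM in control 36. The log2 fold change of Ier2 stayed between 0.26 and 0.43 whichever library was left out.

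The 4 classic AP-1 genes differed in how they varied. Fos (Entrez 14281, chromosome 12, 85473890 to 85477274) measured 8.86, 6.18 and 3.89 CPM in control and 5.60, 4.69 and 4.05 CPM in TFEB. Control 35 and control 37 were its highest and lowest libraries, so the controls enclosed all TFEB values. Its log2 fold change was −0.40 (SE 0.32, 95% interval −1.18 to 0.38, edgeR adjusted p = 1.00), or −0.075 without control 35 and −0.65 without control 37. Fosb (Entrez 14282, chromosome 7, 19302696 to 19310118), which encodes a relative of c-Fos and a shortened form known from long stimulation, gave only 27, 16 and 4 counts in control and 19, 20 and 9 counts in TFEB. At that depth its log2 fold change of 0.066 had a 95% interval from −1.41 to 1.54, and it was −0.36 without control 37.

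Jun (Entrez 16476, chromosome 4, 95049036 to 95052222), the main partner of the Fos proteins, measured 66.4, 96.5 and 75.1 CPM in control and 100.9, 89.8 and 82.8 CPM in TFEB. Only control 36 reached the TFEB range. On the log2 scale the difference was 0.20 (SE 0.16, 95% interval −0.19 to 0.59; edgeR adjusted p = 1.00), with 0.088 without control 35, 0.12 without TFEB 34 and 0.37 without control 36. Junb (Entrez 16477, chromosome 8, 84976909 to 84978748), a weaker activator that can restrain c-Jun, measured 19.7, 24.9 and 13.3 CPM in control and 34.6, 25.0 and 19.0 CPM in TFEB. TFEB 34 was its highest library and control 37 its lowest, with the groups overlapping. Its log2 fold change was 0.44 (SE 0.30, 95% interval −0.27 to 1.15, edgeR adjusted p = 1.00), and 0.19 without TFEB 34, 0.23 without control 37 and 0.66 without control 36.

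Atf3, a stress-induced repressor of the same zipper family, varied most. The gene (Entrez 11910, chromosome 1, 191170296 to 191183333) measured 7.92, 10.5 and 5.60 CPM in control and 14.95, 8.05 and 2.23 CPM in TFEB. Both its highest and its lowest library were TFEB libraries, 6.70 times apart, with 235 and 27 counts. Over the 3 libraries of a group the mean was 7.99 ± 2.43 CPM in control and 8.41 ± 6.37 CPM in TFEB (SD). Its log2 fold change was 0.081 (SE 0.62, 95% interval −1.41 to 1.57, edgeR adjusted p = 1.00), and −0.63 without TFEB 34. The SD of its log2 CPM within the groups was 1.01, larger than in 96.4% of all genes tested and in 96.1% of those with a mean CPM between 0.5 and 2 times its own.

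Nr4a1, also called Nur77, showed a similar split. The gene (Entrez 15370, chromosome 15, 101253902 to 101274795) measured 28.6, 17.7 and 11.9 CPM in control and 35.1, 33.8 and 9.25 CPM in TFEB. TFEB 34 and TFEB 41 lay above every control and TFEB 43 below every control. The log2 fold change was 0.43 (SE 0.54, 95% interval −0.87 to 1.72, edgeR adjusted p = 1.00). It was 0.82 without TFEB 43 or control 35, and 0.15 without TFEB 34, 0.17 without control 37 and 0.22 without TFEB 41. Its within-group SD of 0.89 was larger than in 97.5% of genes of comparable level. Of its 7 transcript models, NM_010444 held the most in each library, from 3.54 TPM in TFEB 43 to 17.5 TPM in TFEB 34. The second, XM_036159163, stood at 2.20, 2.18 and 1.56 TPM in the controls and at 7.49, 5.76 and 1.01 TPM in TFEB, so TFEB 43 was lowest in both. Counts of single models are estimates divided between overlapping models.

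Egr1, a zinc finger factor of the response to growth signals, stood apart from these members. The gene (Entrez 13653, chromosome 18, 34861207 to 34864956) measured 20.1, 34.96 and 18.0 CPM in control and 26.9, 27.2 and 41.4 CPM in TFEB. Its highest library was TFEB 43, the one in which Atf3 and Nr4a1 were lowest. Within TFEB 43 the ratio of Egr1 to Atf3 in TPM was 11.3, against 1.10 to 2.06 in the other 5 libraries. The log2 fold change of Egr1 between the groups was 0.38 (SE 0.30, 95% interval −0.34 to 1.11, edgeR adjusted p = 1.00), 0.74 without control 36, 0.21 without control 37 and 0.15 without TFEB 43.

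Ier3 and Myc complete the group. Ier3 (Entrez 15937, chromosome 17, 35821713 to 35822911), an early response gene that affects cell survival, measured 16.6, 23.9 and 19.3 CPM in control and 22.3, 21.3 and 15.7 CPM in TFEB. The highest library was a control and the lowest a TFEB library, and the log2 fold change was −0.01 (SE 0.19, 95% interval −0.47 to 0.46), a ratio from 0.72 to 1.37. Myc (Entrez 17869, chromosome 15, 61985341 to 61990361) measured 3.49, 5.76 and 2.33 CPM in control and 7.70, 5.35 and 2.64 CPM in TFEB. TFEB 34 was highest and control 37 lowest, as for Junb. Myc differed by 0.44 on the log2 scale (SE 0.48, 95% interval −0.71 to 1.59; edgeR adjusted p = 1.00), by 0.051 without TFEB 34, by 0.19 without control 37 and by 0.85 without control 36. The 4 Myc models fell into 2 pairs with equal TPM within a pair in every library, so only the gene total is used.

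**Figure D3:**
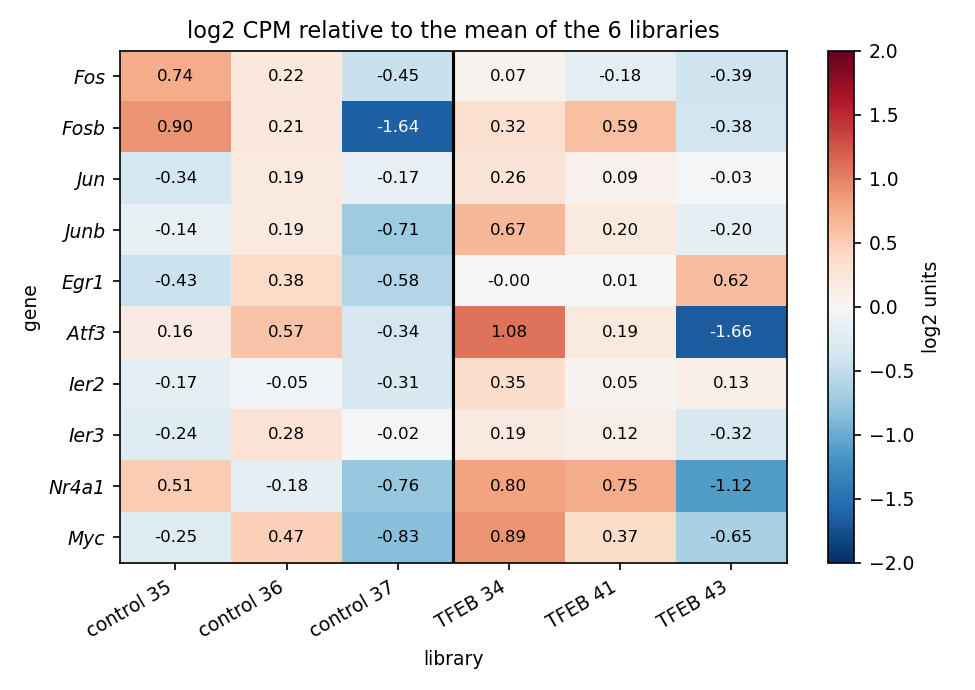
Log2 CPM of each gene in each library relative to the gene's mean over the 6 libraries, red above and blue below, with a line between the groups. Control 37 is blue for all 10 genes, and TFEB 43 is blue for 8 and red for Egr1 and Ier2.

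Members tended to be high or low in the same libraries of either group. TFEB 34 held the highest value of 6 of the 10 members and control 37 the lowest of 6, where TFEB 34 held the highest of 26.8% and control 37 the lowest of 13.2% of all genes tested. The mean log2 CPM of the members relative to the 6 libraries, here called the member level, was 0.059, 0.22 and −0.54 in control and 0.45, 0.21 and −0.39 in TFEB. Each group held 1 low library, and its SD was 0.40 in control and 0.43 in TFEB around means of −0.089 and 0.089. The within-group SD of log2 CPM ran from 0.14 for Ier2 to 1.01 for Atf3, with a median of 0.44 against 0.22 over all genes tested. Low genes vary more by counting alone, so this median is a description and not a comparison at equal depth. Among genes of comparable level, the share with a smaller SD was 32.1% for Ier2. For the other members it ran from 67.4% for Jun to 97.5% for Nr4a1.

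Matrix markers and macrophage markers moved with the member level. The level of 9 myofibroblast and matrix markers, computed in the same way, was 0.18, 1.38 and −1.89 in control and 2.16, 1.01 and −2.84 in TFEB. In summed CPM they ran from 1510 to 9607 in control and from 1057 to 16364 in TFEB, and none was at 0. The level of 10 macrophage and monocyte markers was −0.034, 0.35 and −0.77 in the controls and 0.94, 0.33 and −0.82 in TFEB, with summed CPM from 485 to 910 and from 418 to 1318. The level of the 8 fibroblast markers was 0.47, 0.14 and −0.29 in control and 0.28, 0.061 and −0.66 in TFEB. All 3 lists were lowest in control 37 and TFEB 43, the libraries with the lowest member level. The 10 cardiomyocyte markers had levels from −0.29 to 0.14 in control and from −0.17 to 0.18 in TFEB, and the 8 endothelial markers from −0.040 to 0.043 over all libraries. The cardiomyocyte markers did not move alike. Myh7 measured 168, 2297 and 281 CPM in control and 3253, 1316 and 74.3 CPM in TFEB. Myh6 measured 37281.5, 29427.5 and 44208 CPM in control and 23129, 35081 and 49163 CPM in TFEB. The summed CPM of the 10 was highest in TFEB 43 (119695) and control 37 (106987) and lowest in TFEB 34 (64398). With the matrix level as a covariate the fit called 0 members and the median of the members was 0.18. Log2 fold changes were then 0.35 for Ier2, 0.40 for Junb, 0.31 for Myc, 0.17 for Nr4a1 and −0.31 for Atf3. The part of the macrophage and fibroblast markers in these values was not tested.

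Other cell type markers set single libraries further apart. The 4 atrial muscle markers (Nppa, Myl4, Myl7 and Sln) had levels of 5.50, −3.13 and 1.71 in control and −3.09, −1.03 and 0.035 in TFEB. Their highest library, control 35, is also the one that holds the Fos maximum, and all 4 stood lower in TFEB with overlap (median log2 fold change −5.09). The 4 did not move alike: Nppa stood at −0.76, Myl4 at −4.99, Myl7 at −5.18 and Sln at −5.41. In control 36 and TFEB 34, Nppa measured 4178 and 8454 CPM, while Myl7 measured 0.42 and 0.13 CPM and Sln 0 in both. Of 5 adipocyte markers tested, 4 lay lower in every TFEB library, where 2.51% of all genes tested did. Levels of the 5 ran from 0.12 to 2.99 in control and from −3.15 to −0.53 in TFEB (median −4.15, 0 called). The 8 smooth muscle and pericyte markers all stood higher in TFEB (median 0.33, 0 called). Their levels ran from −0.30 to −0.017 in control and from −0.24 to 0.35 in TFEB. All 9 matrix markers (median 0.69) and all 10 macrophage markers (median 0.28) stood higher too. In the smooth muscle and pericyte list, Acta2 stood at 0.98 (SE 0.22), higher in every TFEB library, as were 2.24% of all genes tested. Myh11 (0.0045) and Rgs5 (0.025) stood near 0. Over all libraries the summed CPM of 5 red blood cell markers ran from 782 to 3924. That of 6 neutrophil markers (3 of them tested) ran from 4.71 to 12.5. That of 7 lymphocyte markers (3 of them tested) ran from 2.35 to 10.8. The groups overlapped in each of these sums. The part of these cell types in the members' values was not tested.

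**Figure D4:**
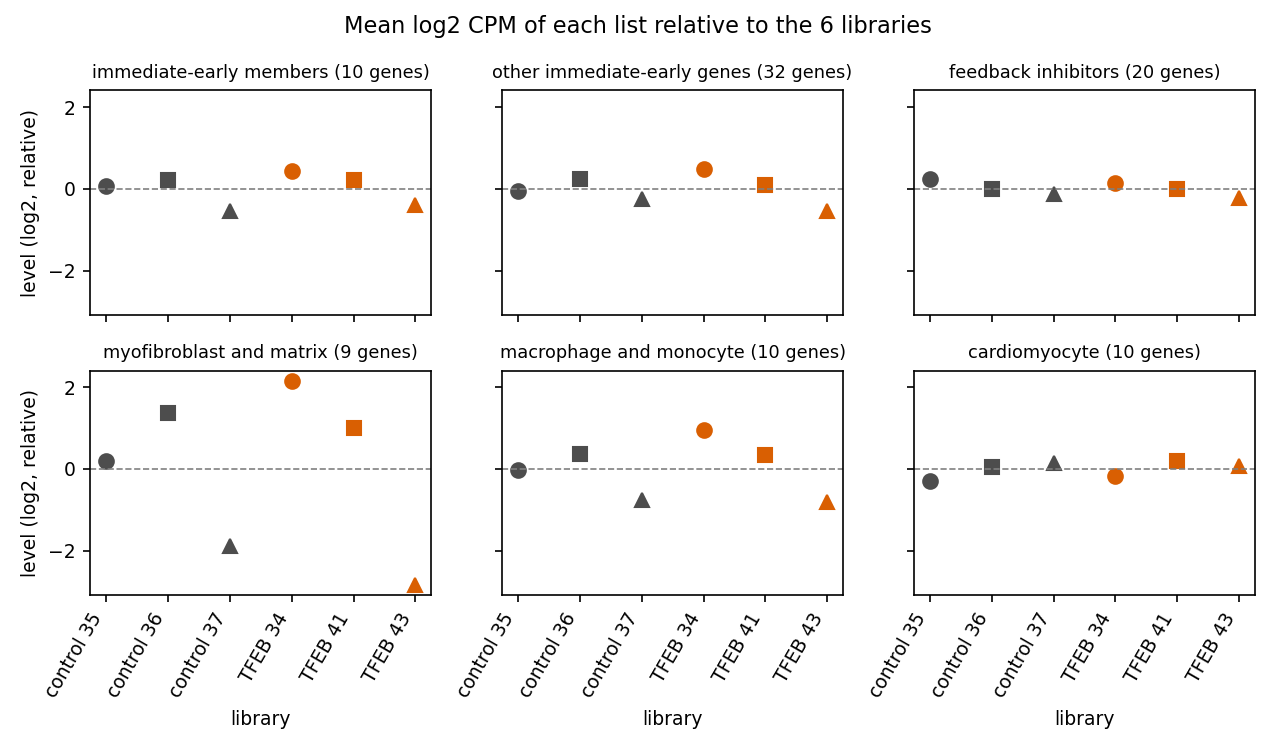
Mean log2 CPM of 6 gene lists relative to the 6 libraries, 1 point per library, control in grey and TFEB in orange. The members, the other immediate-early genes, the matrix list and the macrophage list are all low in control 37 and TFEB 43, over a far wider range for the matrix list.

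Other immediate-early genes, 32 of which were tested, showed no called gene and a median log2 fold change of 0.064, with 18 higher and 14 lower in TFEB. That median changed sign, to −0.17 without TFEB 34 and −0.014 with the matrix level as a covariate, and reached 0.26 without TFEB 43. Their level was also lowest in TFEB 43 (−0.53) and control 37 (−0.24) and highest in TFEB 34 (0.48). Ier5l, a relative of Ier2, was higher in every TFEB library and measured 4.43, 5.69 and 4.05 CPM in control and 8.84, 8.35 and 6.11 CPM in TFEB (log2 fold change 0.72, SE 0.23). Klf4, an early zinc finger factor, stood at −0.27 (SE 0.14). In this list of 32, 1 gene lay without overlap on the higher side and 2, Rhob and Dusp1, on the lower side. Among all genes tested the shares were 2.24% and 2.51%. Dusp1, Zfp36 and Btg2 are counted again among the feedback inhibitors, and Maff among the other AP-1 genes. The other AP-1 and small Maf genes, with 10 tested, had a median of 0.095 and no gene called or free of overlap. Without TFEB 34 the median was −0.074, without control 37 it was 0.0031 and without TFEB 43 it was 0.27. The nearest to a difference by p were Atf7 (−0.064, SE 0.081), Maff (0.31, SE 0.45) and Batf2 (0.25, SE 0.40).

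Among genes that switch the response off, 3 lay lower in every TFEB library without passing the test. Of 20 feedback inhibitors, 0 were called, 8 stood higher and 12 lower, and the median log2 fold change was −0.056. The median was above 0 without control 35 (0.063), TFEB 43 (0.048) or control 36 (0.045) and with the cardiomyocyte level as a covariate (0.052), and it was −0.17 without TFEB 34 and −0.13 without control 37. Dusp1, the phosphatase that inactivates p38 and JNK and is itself an immediate-early gene, measured 88.9, 61.9 and 79.7 CPM in control and 50.5, 49.9 and 60.1 CPM in TFEB. Every TFEB library lay below every control, with a log2 fold change of −0.52 (SE 0.16, edgeR adjusted p = 1.00). The NF-kB inhibitor gene Nfkbia measured 38.2, 30.4 and 36.6 CPM in control and 28.2, 28.5 and 24.0 CPM in TFEB (log2 fold change −0.38, SE 0.13). Errfi1, an inhibitor of the EGF receptor, measured 49.8, 45.0 and 50.2 CPM in control and 42.8, 35.7 and 30.7 CPM in TFEB (log2 fold change −0.41, SE 0.14). Besides these 3, 1 gene of the list, Spry2, did not overlap: it was higher in every one (log2 fold change 0.048). Dusp1, Nfkbia and Errfi1 had the smallest p in the list, and 2.51% of all genes tested lay lower in every TFEB library.

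Regulators that act on immediate-early promoters lay as often higher as lower. Of 26 kinases and factors, 13 stood higher and 13 lower, the median was 0.00, and 0 were called or free of overlap. Crem stood at −0.35 (SE 0.16), Creb1 at −0.16 (SE 0.095) and Srf at 0.18 (SE 0.11). Among 14 genes of the ATF4 and integrated stress pathway, which induces Atf3, the median was 0.033. Slc7a11, the cystine transporter, stood at 0.36 (SE 0.15), Psat1 at −0.34 (SE 0.25) and Atf4 itself at 0.15 (SE 0.12). Only Slc7a11 of these genes did not overlap and lay higher in every TFEB library, where 2.24% of all genes tested did. The median of this list fell below 0 without TFEB 34 (−0.079), without control 37 (−0.027) and with the matrix level as a covariate (−0.029), and it was 0.15 without TFEB 43. Their level was lowest in control 37 (−0.36) and TFEB 43 (−0.43), the library with the least Atf3.

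Of 19 tested genes of the MYC network and its targets, 11 stood higher and 8 lower (median 0.070), 0 were called, and 3 lay higher and 1 lower without overlap, where 2.24% and 2.51% of all genes tested did. The 3 were Cad, which starts pyrimidine synthesis (0.35, SE 0.11), the nucleotide kinase gene Nme1 (0.34, SE 0.14) and Odc1, which starts polyamine synthesis (0.29, SE 0.13). Cad measured 20.9, 21.0 and 23.3 CPM in control and 25.4, 27.5 and 30.0 CPM in TFEB, so it was highest in TFEB 43, where Myc was lowest among the TFEB libraries. Of 14 AP-1 targets 9 stood higher (median 0.26) and none was called. In this list Mmp3 stood lower, at −0.68 (SE 0.35), and Ccnd1 higher, at 0.45 (SE 0.24), as did the urokinase gene Plau, at 0.63 (SE 0.47). The AP-1 target median rested on single libraries and was 0.013 without TFEB 41, 0.15 without TFEB 34, 0.17 without control 37 and 0.43 without TFEB 43. Plau ran from 0.25 (without TFEB 34) to 1.09 (without control 36), Ccnd1 from 0.28 (without control 35) to 0.63 (without TFEB 34) and Mmp3 from −0.94 (without control 36) to −0.46 (without TFEB 43). Of 11 heat shock genes, which tissue stress and handling also raise, 5 stood higher and 6 lower (median −0.01, and −0.13 without TFEB 43). Hspa1a stood at −0.57 (SE 0.28), Hspa8 at −0.21 (SE 0.15) and Hspb1 at 0.16 (SE 0.16). Only Hspa8 of this list did not overlap and lay lower in every TFEB library, where 2.51% of all genes tested did. The level of the list was lowest in control 35 (−0.11) and highest in control 36 (0.22).

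The genes whose pattern over the 6 libraries was most like the member level, among 10908 others with a mean of at least 5 CPM, were Trim59, Ust, Hps1, Frk, Galnt4 and B3gnt9. Their Pearson r with it ran from 0.993 for B3gnt9 to 0.998 for Trim59, a description over 6 libraries of 2 groups that share the same samples and scaling, and as the highest of many such values they are high by choice. Trim59 measured 4.83, 6.46 and 2.26 CPM in control and 8.84, 6.15 and 2.81 CPM in TFEB. None of the 6 is among the immediate-early or pathway lists used here.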

How the data were processed

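RNA-seq of 6 mouse heart libraries was used. Per the file headers, the table the authors deposited gives estimated counts for each RefSeq transcript, without scaling for depth. It also gives the authors' TPM, scaled to 1 fixed sum in every library. The submitters' processing notes name HISAT2 2.1.0, Bowtie2 2.3.4.3, RSEM 1.3.1, DESeq2 1.4.5 and build mm10 without their roles. Strand setting and annotation release: not given in the sources used here. In RefSeq, no annotated gene overlaps the span of a member. Counts of 62498 transcripts were summed per Entrez gene and rounded, and 117 of 17524 genes had no RefSeq symbol. TFEB overexpression was compared with control by the quasi-likelihood test of edgeR 4.0.16 (filterByExpr, TMM, two-sided) across all 13565 genes tested, with Benjamini-Hochberg adjustment over all of them. CPM uses the TMM-scaled library total. Levels of lists use log2 CPM with a prior count of 2. An exact permutation test of 3 against 3 cannot go below 0.1 and was not run. The members and lists were chosen with earlier results of these data known. All members and Tfeb were named. Also named were the 3 genes of smallest p in each of 8 pathway lists and the 6 genes most like the member level. Spry2, Rhob, Acta2, Myh11 and Rgs5 were added after their values were seen. Markers of 11 cell types were used. On simulated data for the 13565 genes, the edgeR test recovered 30% of genes changed 2-fold and 81% of those changed 4-fold, with 5 false calls. Simulated counts varied independently from gene to gene, without the differences between libraries that many genes share here. These shares may therefore not hold for the real libraries. Alternatives were RLE and upper-quartile scaling, DESeq2 1.42.0, limma-voom and limma-trend 3.58.1 on log2(TPM + 1) and log2(TPM + 0.1), 2 other count filters, each library left out, 2 covariates and a threshold of 0.10.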

Additional observations from a re-analysis of the deposited data

How the results depend on the processing

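No setting called a member, and none called any gene except DESeq2, which called 1 (not a member). The median over the members stayed above 0, from 0.087 to 0.36 with 1 library left out and from 0.18 to 0.35 in the other settings. Among the members, 7 kept their direction in every setting, and Fosb, Atf3 and Ier3, all near 0 in the reported fit, did not. Atf3 stood at −0.24 on log2(TPM + 0.1), −0.16 on log2(TPM + 1), −0.17 by limma-voom and −0.31 with the matrix level as a covariate, which also put Fosb at −0.0038. Fosb fell below the filter on TPM and has no value there. Ier3 stood at 0.0048 by limma-voom and 0.00064 under upper-quartile scaling. With 1 library left out, Fosb ran from −0.36 (without control 37) to 0.65 (without control 35), Atf3 from −0.63 (without TFEB 34) to 0.53 (without TFEB 43) and Ier3 from −0.12 (without control 35) to 0.14 (without control 36). Maff ran from −0.018 and Batf2 from −0.051, both without TFEB 34, to 0.75 without control 36 and 0.503 without TFEB 41. The median log2 fold change of every pathway list but the AP-1 targets took both signs with 1 library left out. It ran from −0.17 to 0.26 for other immediate-early genes, −0.074 to 0.27 for other AP-1 genes, −0.17 to 0.063 for feedback inhibitors, −0.079 to 0.15 for ATF4 genes and −0.13 to 0.0066 for heat shock genes, and from 0.013 to 0.43 for AP-1 targets. The median of the upstream kinases and factors ran from −0.034 (without control 36) to 0.027 (without TFEB 41), and that of the MYC network from −0.0065 (without control 35) to 0.094 (without TFEB 43). The cause of these shifts was not tested. The labels of the groups share no replicate number: No paired analysis was possible because of that. Fosb, with 4 to 27 counts per library, and Atf3 in TFEB 43, with 27, are limited by depth.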
